A study of Mus musculus with 24 samples.

Results

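The 30 genes described here encode parts of the machinery that makes ribosomes in the nucleolus: subunits and factors of RNA polymerase I, the proteins of small nucleolar ribonucleoprotein particles, and assembly factors of the small and large ribosomal subunits. They were chosen by symbol. Each member was read as the average of the array probe sets annotated to its symbol alone, and all 30 were measured, out of 23152 genes, through 488 probe sets (from 2 for Fbl to 51 for Utp20). The data are liver total RNA of male mice of strain C56bl/6J, as the labels spell it, aged 13 weeks and given chow ad libitum. Arrays were run at 8 zeitgeber times every 3 h from ZT0 (lights on) to ZT21, with 3 arrays at each time and 24 in all. From its title the study is about circadian expression, and the question put to these genes is which of them follow the time of day. All groups share the strain, sex, age and diet and carry no further treatment or allele in the labels. The labels do not say that the replicates of a time point are separate animals, so the p-values describe the scatter of these samples alone, part of which may be technical.

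Ribosome production starts with RNA polymerase I, which transcribes the long precursor of the ribosomal RNAs from repeated genes in the nucleolus. Small nucleolar particles then guide methylation (box C/D) and pseudouridylation (box H/ACA) of that precursor, while assembly factors fold it, cut it and load the ribosomal proteins. The process is among the costliest a cell runs, is known to respond to nutrients through the TOR kinase and MYC, and in mouse liver is known to follow the daily cycle of feeding. The arrays measured the mRNAs of the factors, not the ribosomal RNA they make.

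Promoter sequences are shown for the 4 members with the smallest p of the daily rhythm, because these gave the firmest calls. Each run is 300 bases, from 250 bases before to 50 after the start that RefSeq's promoter table uses for the gene (for Nop56 it lies downstream of the start in its gene table), written 5′ to 3′ on the strand of the gene, from RefSeq on GRCm38.p6. Capitals mark CACGTG, the E-box that the clock proteins CLOCK and BMAL1 and also MYC and MAX are known to bind.

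Gnl3 (chr14:31019082-31019381, minus strand): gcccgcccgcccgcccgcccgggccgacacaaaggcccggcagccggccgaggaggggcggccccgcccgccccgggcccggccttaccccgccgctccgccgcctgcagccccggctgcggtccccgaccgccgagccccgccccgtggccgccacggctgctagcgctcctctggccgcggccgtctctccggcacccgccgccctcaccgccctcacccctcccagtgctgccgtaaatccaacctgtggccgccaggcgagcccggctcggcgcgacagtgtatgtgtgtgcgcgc
Rrn3 (chr16:13780449-13780748, plus strand): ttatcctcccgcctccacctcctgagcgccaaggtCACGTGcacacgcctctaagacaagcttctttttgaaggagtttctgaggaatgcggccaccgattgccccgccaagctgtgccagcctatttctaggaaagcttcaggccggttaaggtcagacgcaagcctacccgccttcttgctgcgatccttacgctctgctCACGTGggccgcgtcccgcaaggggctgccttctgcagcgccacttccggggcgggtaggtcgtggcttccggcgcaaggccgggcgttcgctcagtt
Nop2 (chr6:125131633-125131932, plus strand): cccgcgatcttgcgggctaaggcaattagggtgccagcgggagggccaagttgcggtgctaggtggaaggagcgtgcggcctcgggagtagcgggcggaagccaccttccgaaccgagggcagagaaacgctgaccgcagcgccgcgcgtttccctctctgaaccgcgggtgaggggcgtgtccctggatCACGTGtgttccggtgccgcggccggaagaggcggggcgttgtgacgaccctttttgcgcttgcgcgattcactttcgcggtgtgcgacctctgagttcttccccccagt
Nop56 (chr2:130274162-130274461, plus strand): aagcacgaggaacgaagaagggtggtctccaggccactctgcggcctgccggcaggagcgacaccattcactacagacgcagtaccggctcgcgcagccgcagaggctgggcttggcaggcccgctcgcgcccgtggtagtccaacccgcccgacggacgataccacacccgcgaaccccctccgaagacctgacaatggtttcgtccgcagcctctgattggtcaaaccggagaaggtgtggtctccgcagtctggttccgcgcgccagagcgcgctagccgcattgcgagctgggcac

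The Rrn3 promoter held the 6 letters at 215 and 48 bases before the start, and the Nop2 promoter at 60 bases before it. Those of Gnl3 and Nop56 held none in this window. Of the 25 members with a promoter entry (all but Fbl, Rrp12, Bop1, Rrs1 and Npm1), 5 held CACGTG, which reads the same on both strands: Rrn3, Nop2, Pes1, Utp20 and Mybbp1a. Of all 27025 genes with an entry, 8.09% held it. In Pes1, Utp20 and Mybbp1a it lay after the start, at 2, 37 and 40 bases. Of the other motifs searched, on both strands, TATGTAA (part of the site of Dbp and its relatives) was in 0 of the 25 against 3.27% of genes, CCAAT in 8 against 41.06%, GCATGC in 3 against 8.93% and TATAAA in 2 against 15.67%. These matches describe letters only and were not tested.

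Every member lay above the background of the arrays, taken as 6.17, the 95th percentile of the mean log2 values of 1101 olfactory receptor genes. Member means ran from 6.43 for Rrp9 to 12.68 for Ncl, with a median of 8.82 against 5.75 over all genes. Probe sets differ in brightness, so levels are not compared between genes. No member had a probe set at 19.93, the upper end of the scale. The liver label fitted its markers: the 12 hepatocyte markers averaged between 16.88 and 17.18 on every array but ZT0 replicate 1, where they averaged 16.98.

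One array stood apart. ZT0 replicate 1 had a mean correlation with the other arrays of 0.9678, against 0.9802 to 0.9855 for the rest. Its 6 neutrophil markers averaged 10.29 against a median of 4.47 and at most 4.89 on the other arrays, and its 10 Kupffer cell markers 11.68 against 7.46 to 9.54. Alas2, the measured erythroid marker, stood at 8.98 against 10.20 to 11.61. On this array 21 of the 30 members were lower than on both other ZT0 arrays, and 15 had their lowest value of all 24. The shares of all genes for these counts were not taken. Above their own mean on this array were 6 members and 44.94% of all genes. The part of these cells in the members' values was not tested, and in whole tissue fewer cells of a type and less RNA per cell cannot be told apart. Where leaving this array out ended a member's rhythm call or moved a count of members by over 1.5 times, the value without it is given beside the result. ZT0 replicate 3 had the highest level of 15 cell division genes, 7.63 against a median of 5.13 over the arrays other than ZT0 replicate 1. On ZT0 replicate 3, 13 members were above their own mean, as were 48.21% of all genes.

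Most members were low around the start of the day and high from ZT9 to ZT12. Ubtf, Dkc1 and Polr1c departed from this course. Gnl3, Rrp9, Nhp2, Pes1, Rrs1 and Gar1 also had their lowest mean at other times than ZT0 or ZT3. Between ZT6 and ZT9 the mean was higher for 30 of 30 members, with a median step of 0.28 on the log2 scale, while 49.8% of all genes stepped up. Between ZT12 and ZT15 it was lower for 28 of 30, while 50.8% of all genes stepped up. The members' median step was -0.40 and the steepest, -1.21, was that of Gnl3. Dkc1 and Nhp2 stepped up. The highest mean fell at ZT12 for 15 members, at ZT9 for 13, at ZT15 for Dkc1 and at ZT0 for Ubtf. The lowest mean fell at ZT0 for 15 members and at ZT3 for 6, and without ZT0 replicate 1 at ZT0 for 7 and at ZT3 for 11. With all arrays it fell at ZT6 for 3, at ZT15 for 3, at ZT21 for 2 and at ZT18 for Gnl3 (10.42, against 10.98 at ZT0). Array by array, 28 of 30 members exceeded their own 24-array mean on ZT9 replicates 2 and 3 but 16 on ZT9 replicate 1. On the ZT12 arrays 29, 23 and 27 did, and on the ZT3 arrays 2, 5 and 3. Of all genes, 48.58% to 51.0% exceeded their own mean on each of these ZT3, ZT9 and ZT12 arrays.

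**Figure D1:**
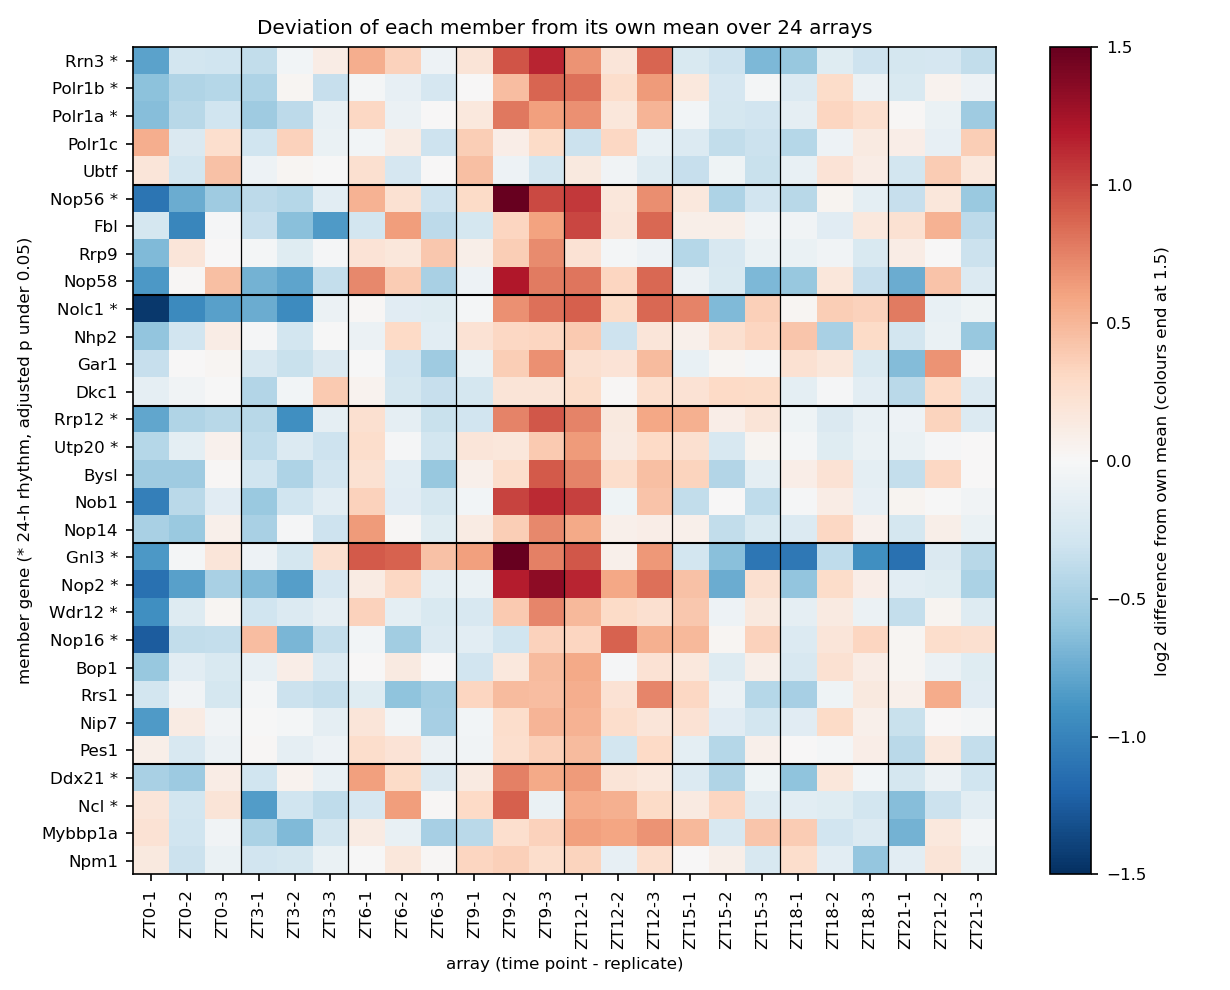
Log2 difference of each member (rows, grouped by role) from its own mean over 24 arrays, for each array (columns, time point and replicate); colours end at 1.5 and asterisks mark the 13 members with a 24-h rhythm. The red block covers the ZT9 and ZT12 columns, with ZT9 replicate 1 paler than its neighbours, and the blue one the ZT0 and ZT3 columns.

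A 24-h rhythm was tested by fitting a cosine and a sine of 24 h to all 24 arrays with limma; the range is the fitted peak-to-trough distance and the acrophase the fitted hour of the peak. With Benjamini-Hochberg adjustment over all genes and a threshold of 0.05, 13 of the 30 members (43.3%) were rhythmic, against 6.88% of all genes tested (1592). Among the 10289 genes whose mean lay above background it was 13.9%. Without ZT0 replicate 1, 11 members were rhythmic, 10 of them among the 13, against 6.77% of genes. Another 11 of the 17 that did not pass had an unadjusted p under 0.05, which makes 24 of 30, against 19.2% of all genes. All 13 acrophases lay between 6 and 15 h, as did 42.1% of those of all rhythmic genes. This window encloses the members' own span, 7.69 to 14.05 h, so the comparison is descriptive and was not tested. The median range of the 30 members was 0.68, against 0.25 over all genes, and 5 of the 13 ranged at least 2-fold: Gnl3, Nop2, Nop56, Nolc1 and Rrn3.

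**Figure D2:**
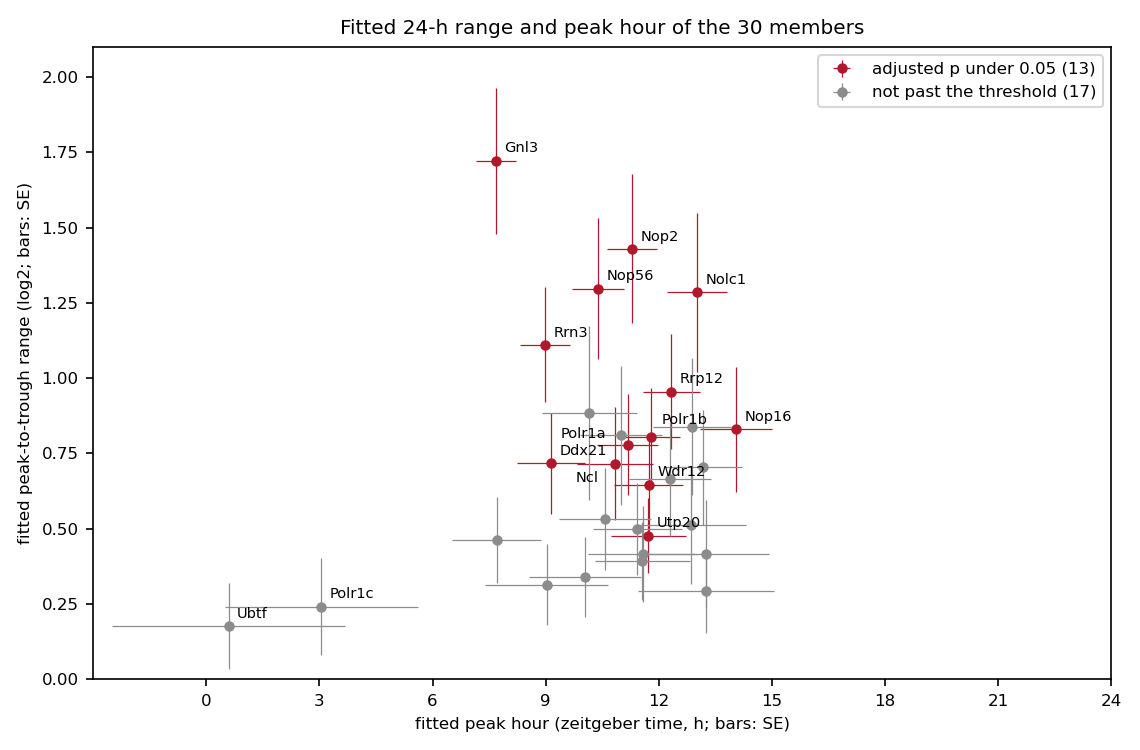
Fitted peak-to-trough range (log2, vertical) against the fitted peak hour (zeitgeber time, horizontal) for each member, with standard errors as bars; red points passed the threshold and grey points did not. The red points lie between Gnl3 at 7.69 h and Nop16 at 14.05 h, and Ubtf and Polr1c lie apart at the lower left.

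The 5 members that act in transcription by RNA polymerase I split. Polr1a, Polr1b and Rrn3 were rhythmic, while Polr1c and Ubtf were not. Rrn3 binds the polymerase and carries it to the promoter, and is known as the factor through which growth signals control initiation. It stood at 10.11, 10.86 and 11.06 on the ZT9 arrays (replicates 1, 2 and 3) and at 9.12, 9.65 and 9.62 on the ZT0 arrays. These times were picked for its highest and lowest mean, as were those compared for overlap in single members below. Arrays of times picked so do not overlap in 57.4% of all genes, so a lack of overlap is weak evidence of a rhythm. The Rrn3 groups did not overlap, and the lowest value was that of ZT0 replicate 1. Its range was 1.11 ± 0.19 (SE, 24 arrays), or 2.16-fold, with the peak at 8.98 ± 0.66 h (limma adjusted p = 0.00151), and 1.06 without ZT0 replicate 1 (0.00273).

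Polr1a, the largest subunit, and Polr1b, the next in size, together form the catalytic centre of the polymerase. Polr1a stood at 8.83, 9.46 and 9.28 at ZT9 and at 8.03, 8.25 and 8.38 at ZT0. Polr1b stood at 8.23, 7.67 and 8.04 at ZT12 and at 6.78, 6.94 and 6.97 at ZT0. In neither did the arrays of the 2 times overlap. The ranges were 0.78 ± 0.17 at 11.17 ± 0.82 h for Polr1a (limma adjusted p = 0.0116) and 0.80 ± 0.16 at 11.78 ± 0.77 h for Polr1b (0.00654), or 1.72-fold and 1.75-fold. Without ZT0 replicate 1 both passed (0.0265 and 0.0161), and in a fit to replicates 2 and 3 (16 arrays) neither did (0.148 and 0.161). Both calls also ended without the 3 ZT0 arrays (0.0785 and 0.0697).

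Polr1c, a subunit that RNA polymerases I and III share, stood at 9.07, 8.80 and 8.98 at ZT9 and at 8.49, 8.33 and 8.37 at ZT15. These groups were chosen as the highest and the lowest of 8 and do not overlap, yet the ZT0 arrays alone ran from 8.47 to 9.25. Its fitted range was 0.24 ± 0.16 (limma adjusted p = 0.664). Ubtf, which binds along the ribosomal RNA genes and keeps them open, stood at 9.90, 9.45 and 10.16 at ZT0 and at 9.37, 9.66 and 9.39 at ZT15. Its groups overlapped, and its range was 0.18 ± 0.14 (0.761). Fitted on each replicate alone, the hour of Ubtf came out at 7.02, 18.87 and 23.39 h, so the 3 series give it no common peak.

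**Figure D3:**
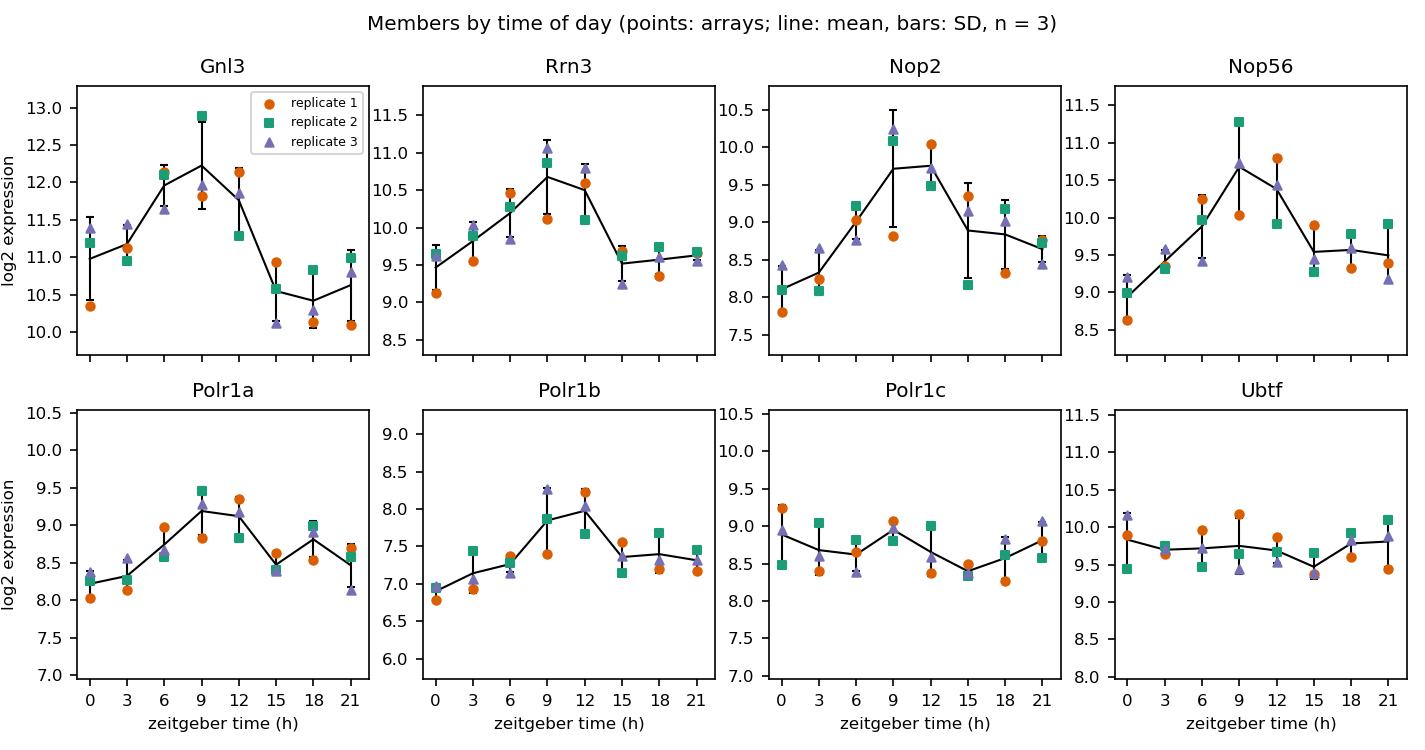
Log2 expression of 8 members (panels) against zeitgeber time (h); points are single arrays by replicate, the line joins the means and bars are SDs (n = 3), and each panel spans the same log2 distance. Gnl3, Rrn3, Nop2 and Nop56 are high from ZT6 or ZT9 to ZT12, Polr1a and Polr1b show the same course over a smaller range, and Polr1c and Ubtf do not.

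Of the box C/D proteins, Nop56 was rhythmic and Nop58, Fbl and Rrp9 were not. Nop56 and Nop58 are the paired scaffold of the particle. Nop56 stood at 10.03, 11.28 and 10.73 at ZT9 and at 8.64, 8.99 and 9.20 at ZT0, with no overlap and a difference of means of 1.74. Its range was 1.30 ± 0.23, or 2.46-fold, with the peak at 10.38 ± 0.69 h (limma adjusted p = 0.0025; 0.00613 without ZT0 replicate 1 and 0.0985 on replicates 2 and 3). Nop58 was highest at ZT12, with 11.08, 10.60 and 11.14, and lowest at ZT3, with 9.57, 9.49 and 9.92. At ZT0 its 3 arrays spread from 9.42 to 10.73, and its range of 0.88 ± 0.29 did not pass (0.146). Fbl, the methyltransferase of the particle, was measured by 2 probe sets only. It had a range of 0.84 ± 0.23 with a fitted peak at 12.89 h (0.0592). Rrp9, which is specific to the U3 particle, had a range of 0.46 ± 0.14 and the earliest fitted peak of the 4, at 7.70 h (0.113).

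Of the box H/ACA group, Nolc1 was rhythmic, and Dkc1, Gar1 and Nhp2, the core proteins of the particle among the members, were not. Nolc1, also called Nopp140, is a nucleolar and Cajal body protein that accompanies the particles. It stood at 10.64, 10.04 and 10.61 at ZT12 and at 8.30, 8.79 and 8.93 at ZT0, a difference of means of 1.75 and the largest between these times of any member. Every ZT12 array lay above every ZT0 array. Its range was 1.29 ± 0.26, or 2.44-fold, with a late peak at 13.01 ± 0.79 h (limma adjusted p = 0.00842; 0.0202 without ZT0 replicate 1). The call ended with the median of its probe sets (0.146), on replicates 2 and 3 (0.0776) and without the 3 ZT0 arrays (0.115). Its values stayed high on single arrays after ZT12, with 10.49 on ZT15 replicate 1 and 10.52 on ZT21 replicate 1. Dkc1, the pseudouridine synthase, had a range of 0.29 ± 0.14 (0.424). Gar1 and Nhp2 had 0.42 ± 0.18 (0.351) and 0.50 ± 0.15 (0.111). The fit of Nolc1 and that of its partners were not set against each other by a test.

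Of the 5 small-subunit factors, Rrp12 and Utp20 were rhythmic. Rrp12 helps the small-subunit precursor mature and leave the nucleus. It stood at 8.08, 7.48 and 7.92 at ZT12 and at 6.55, 6.88 and 6.91 at ZT0, with no overlap. The range was 0.96 ± 0.19, or 1.94-fold, with the peak at 12.33 ± 0.76 h (limma adjusted p = 0.00642; 0.0164 without ZT0 replicate 1). The call ended on replicates 2 and 3 (0.0997) and without the 3 ZT0 arrays (0.0548). Utp20, a large scaffold protein of the small-subunit processome, had a range of 0.48 ± 0.12, the smallest of the 13, with the peak at 11.73 h (0.0461). That call ended without ZT0 replicate 1 (0.0954) and, in all, in 18 of the 24 fits that each left out an array. Nob1 makes the cut that releases the mature small-subunit rRNA, and Bysl acts in the same late particles. Nob1 had a range of 0.81 ± 0.23 (0.0769), Bysl of 0.67 ± 0.19 (0.0741) and Nop14, a processome protein, of 0.53 ± 0.17 (0.134).

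The large-subunit group held Gnl3, the member with the smallest p, with Nop2, Wdr12 and Nop16 as its other rhythmic genes. Gnl3 encodes nucleostemin, a nucleolar GTPase that is abundant in proliferating cells and acts in processing of the large-subunit rRNA precursor. It stood at 11.82, 12.89 and 11.96 at ZT9 and at 10.14, 10.83 and 10.29 at ZT18, with no overlap. Its ZT6 arrays were already at 12.14, 12.09 and 11.65. Between ZT12 and ZT15 it went from 12.14, 11.29 and 11.86 to 10.94, 10.58 and 10.13. The range was 1.72 ± 0.24, or 3.30-fold, and the peak, at 7.69 ± 0.54 h, the earliest of the 13 (limma adjusted p = 0.000157; 0.000196 without ZT0 replicate 1).

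Nop2 methylates the large-subunit rRNA. It stood at 10.05, 9.48 and 9.73 at ZT12 and at 7.80, 8.09 and 8.42 at ZT0, with no overlap. On the ZT9 arrays it was at 8.81, 10.09 and 10.25, so replicate 1 was lower than the others there. The range was 1.43 ± 0.25, or 2.69-fold, with the peak at 11.29 ± 0.66 h (limma adjusted p = 0.00165; 0.00446 without ZT0 replicate 1). With Gnl3 and Rrn3 it passed in all 24 fits that left out an array and in all 12 other alternatives.

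Wdr12 forms the PeBoW complex with Pes1 and Bop1, and was the rhythmic one of the 3. It stood at 9.02, 8.82 and 8.77 at ZT12 and at 7.62, 8.34 and 8.56 at ZT0, where replicate 1 was the low array. The range was 0.65 ± 0.15 with the peak at 11.74 h (limma adjusted p = 0.0266), and the call ended without ZT0 replicate 1 (0.0618) or ZT12 replicate 1. It also ended with the brightest probe set (0.214), with the median of probe sets (0.167), on replicates 2 and 3 (0.262) and without the 3 ZT0 arrays (0.0658). Bop1 had a range of 0.39 ± 0.13 (0.149) and Pes1 of 0.31 ± 0.13 (0.339). Nop16 had the latest peak of the 13, at 14.05 ± 0.95 h, with a range of 0.83 ± 0.21 (0.035, and 0.0542 without ZT0 replicate 1). In all, 11 of the 24 fits that each left out an array lost the call. Nop16 also lost it with the median of its probe sets (range 0.37, limma adjusted p = 0.759) and without the 3 ZT0 arrays (0.142). Its values at ZT12 were 10.10, 10.65 and 10.30, and at ZT0 they were 8.52, 9.40 and 9.41. Rrs1, which helps place the small ribosomal RNA of the large subunit, had a range of 0.51 ± 0.19 (0.253), and Nip7 of 0.42 ± 0.16 (0.255).

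Of the nucleolar proteins with several roles, Ddx21 and Ncl were rhythmic. Ddx21, an RNA helicase that acts in rRNA transcription and processing, stood at 10.42, 11.04 and 10.86 at ZT9 and at 9.80, 9.74 and 10.40 at ZT0. The nearest values, 10.42 and 10.40, almost met. The range was 0.72 ± 0.17 with the peak at 9.14 ± 0.89 h (limma adjusted p = 0.0223), and the call ended without ZT9 replicate 2 or ZT9 replicate 3. It also ended with the brightest probe set (0.935), with the median of probe sets (0.114), on replicates 2 and 3 (0.292) and without the 3 ZT0 arrays (0.0526). Ncl, nucleolin, an abundant chaperone of nucleolar RNA, had a range of 0.72 ± 0.19 with the peak at 10.84 h (0.0489). It lost its call in 18 of the 24 fits that each left out an array, and kept it without ZT0 replicate 1 (0.0225) and without the 3 ZT0 arrays (0.0069). The call of Ncl also ended with quantile normalization, the brightest probe set (0.097), the median of probe sets (0.5) and on replicates 2 and 3 (0.186). Mybbp1a, a nucleolar repressor, had 11.23, 11.21 and 11.29 at ZT12 (SD 0.04, n = 3), and 10.14, 9.96 and 10.34 at ZT3. Its range of 0.70 ± 0.19 did not pass with all arrays (0.0564) and did without ZT0 replicate 1 (0.024). Npm1, nucleophosmin, had a range of 0.34 ± 0.13 (0.272).

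Tests of other shapes gave fewer calls. An F test over the 8 time means called 7 of 30 members, against 1.98% of genes: Gnl3, Rrn3, Nop56, Polr1a, Nolc1, Nop2 and Polr1b (limma adjusted p from 0.00924 to 0.0417). Without ZT0 replicate 1 it called 3, against 1.94% of genes. It called 2 to 4 without any one of ZT0 replicate 2, ZT3 replicates 1 and 2, ZT6 replicates 2 and 3, ZT9 replicates 2 and 3, ZT12 replicates 1 and 3 and ZT18 replicate 3. A 12-h component added to the 24-h curve was called in 0 of 30 members and in 0% of genes by limma. At an unadjusted p under 0.05 there were 8 members, and the share of all genes was not counted. The smallest unadjusted p of a member, 0.00262, was that of Rrs1. It had 7.26, 6.83 and 6.93 at ZT6 and 7.76, 7.92 and 7.90 at ZT9.

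The contrast of ZT12 with ZT0 compares lights off with lights on, and that of ZT9 with ZT21 a second pair of opposite hours with no array in common. Both use arrays that also entered the rhythm fit. At ZT12, 7 members were higher than at ZT0, against 0.834% of genes: Nolc1 by 1.75 ± 0.33 (limma adjusted p = 0.012), Nop2 by 1.65 ± 0.34 (0.0185), Nop56 by 1.44 ± 0.29 (0.0187), Nop16 by 1.24 ± 0.28 (0.0317), Polr1b by 1.08 ± 0.21 (0.0132), Rrn3 by 1.03 ± 0.24 (0.0374) and Polr1a by 0.90 ± 0.20 (0.0314). None was called lower, against 0.397% of genes; the members below 0 were Polr1c and Ubtf, with unadjusted p of 0.296 and 0.501. Of all 30, 28 were above 0, with a median of 0.68, against 49.6% of all genes and a median of -0.0025. All 3 ZT12 arrays lay above all 3 ZT0 arrays in 22 members, against 10.1% of genes. Without ZT0 replicate 1, 27 of 30 were above 0 with a median of 0.49, and limma called 0, while 15 were higher at an unadjusted p under 0.05. Over all genes 48.1% lay above 0 without that array, and 0.497% were called in either direction. At an unadjusted p under 0.05, 1534 of the 23152 genes were higher at ZT12. Nolc1 then stood at 1.57 and Polr1b at 1.02 (0.0519 each). With that array out the 3 ZT12 arrays lay above the 2 remaining ZT0 arrays in 22 members, against 15.1% of genes. Without ZT12 replicate 1 or ZT12 replicate 3 limma also called 0 members, with 15 and 19 under an unadjusted p of 0.05. The share of all genes under that p was not counted there. The 15 cell division genes lay below 0 in this contrast: limma called 3 of them lower at ZT12 than at ZT0, namely Mki67 (-2.60), Top2a (-2.31) and Bub1 (-1.41), and the median of the 15 was -1.22. Without ZT0 replicate 1 their median was -1.41 and limma called 0, with 14 under an unadjusted p of 0.05. That fit keeps ZT0 replicate 3, where these genes were highest. Their mean level was 6.07, 5.29 and 7.63 on ZT0 replicates 1, 2 and 3, against a median of 5.13 over the arrays other than ZT0 replicate 1. The part of the cell division genes in the members' differences was not tested.

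At ZT9, Gnl3 was higher than at ZT21 by 1.60 ± 0.33 (limma adjusted p = 0.0151) and Rrn3 by 1.05 ± 0.24 (0.0309), 2 of 30 members against 0.527% of genes. None was lower, against 0.57%; Nop16 and Ubtf lay below 0 with unadjusted p of 0.446 and 0.785. Again 28 of 30 were above 0, with a median of 0.44, against a median of -0.0062 over all genes. The 3 ZT9 arrays all lay above the 3 ZT21 arrays in 11 members, against 7.42% of genes. Without ZT9 replicate 1, 5 members passed, and without ZT9 replicate 3, ZT21 replicate 2 or ZT21 replicate 3, 1 did. Without ZT9 replicate 2 or ZT21 replicate 1 none did, with 8 and 10 members under an unadjusted p of 0.05. For these fits the share of all genes under that p was not counted. Over the day as a whole, the arrays of a member's highest time point lay above all those of its lowest in 27 of 30 members, against 57.4% of genes, since these times were picked as the extremes.

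**Figure D4:**
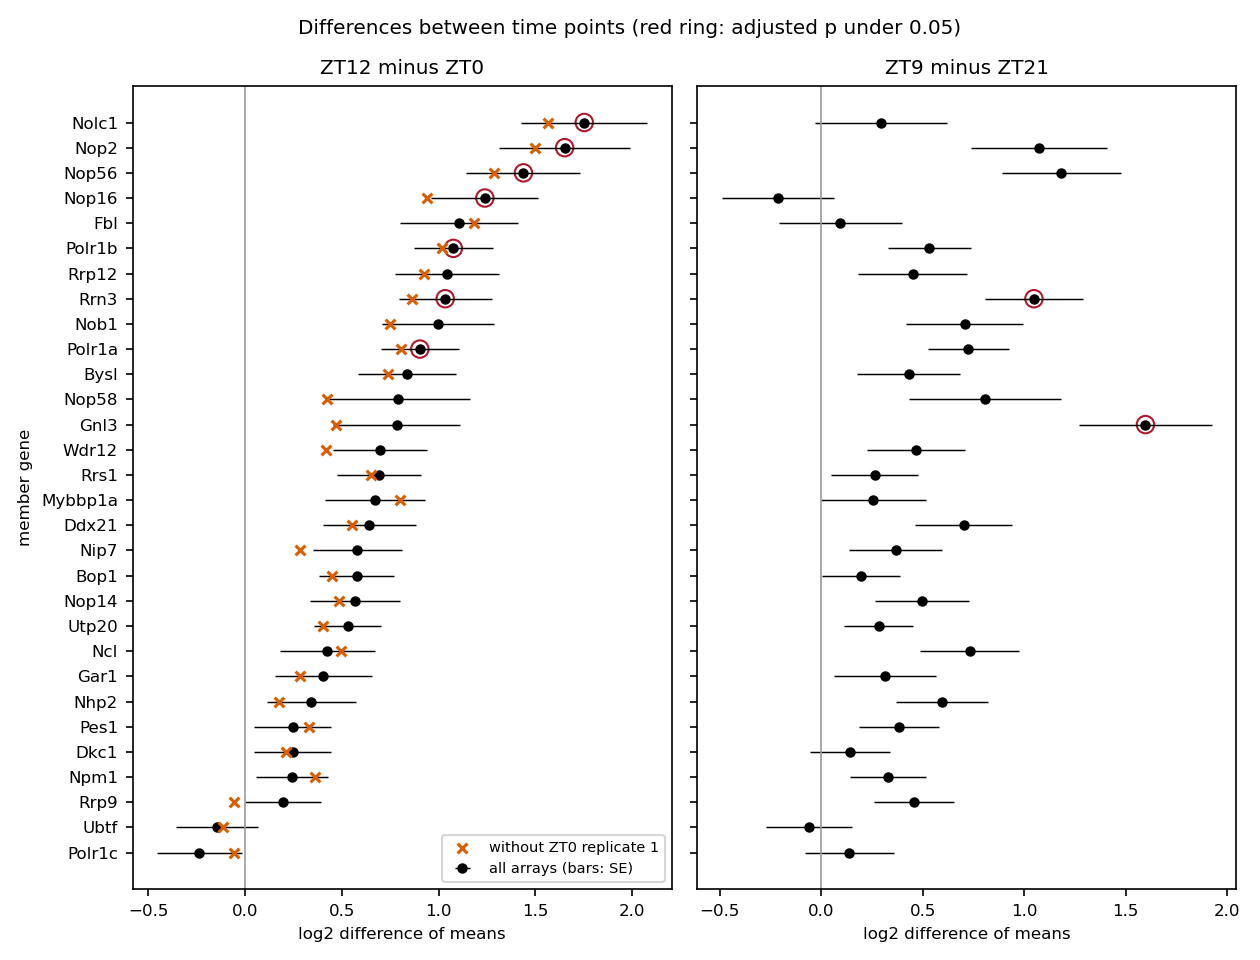
Log2 difference of means for each member (rows), ZT12 minus ZT0 on the left and ZT9 minus ZT21 on the right; dots are all arrays with standard errors, rings mark an adjusted p under 0.05 and crosses leave out ZT0 replicate 1. On the left 28 of 30 dots lie above 0 with 7 rings, and on the right 28 of 30 with rings on Gnl3 and Rrn3.

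The fitted peaks of the 13 rhythmic members ran from Gnl3, Rrn3 and Ddx21 (7.69, 8.98 and 9.14 h) through Nop56, Ncl, Polr1a, Nop2, Utp20, Wdr12 and Polr1b (10.38 to 11.78 h) to Rrp12, Nolc1 and Nop16 (12.33, 13.01 and 14.05 h). Standard errors were 0.54 to 1.01 h, as large as or larger than most gaps between neighbours in this order. Fitted on each replicate alone, Gnl3 was the earliest of the 13 every time, at 8.71, 7.49 and 6.42 h. The latest was Nolc1 on replicate 1 (14.00 h) and Nop16 on replicates 2 and 3 (15.31 and 14.21 h). Differences between these hours were not tested. The replicate numbers are not taken to pair arrays, so these are fits to 8 arrays that share a number. In them 10 of the 13 members peaked later on replicate 1 than on replicate 2, by a median of 0.95 h, and all 16 clock genes did, by a median of 2.29 h. Replicate 3 differed from replicate 2 by a median of -0.09 h for the members and -0.02 h for the clock genes.

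The value of a gene is the mean of its probe sets, so their hours are partly shared by construction. Of the 488, 360 peaked within 3 h of their gene, and of the 267 of rhythmic members 213 did. For Gnl3 it was 16 of 16, for Nolc1 9 of 9, for Nop16 7 of 7 and for Nop56 17 of 18, while for Utp20 it was 26 of 51, for Dkc1 9 of 18, for Gar1 4 of 8 and for Rrp9 7 of 18. The size of the rhythm depended on the probe set. The brightest probe set of Nolc1 had a range of 0.42, that of Rrp12 0.35 and that of Ddx21 0.18, none of which passed (limma adjusted p = 0.414, 0.981 and 0.935). For Gnl3, Nop2 and Nop56 the brightest probe sets ranged 2.07, 2.00 and 1.68, more than the means over their probe sets, and passed (0.00136, 0.00553 and 0.0242).

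Small nucleolar RNAs often lie in the introns of other genes and are cut out of the host transcript. RefSeq places 7 measured ones within members, each with a single probe set: Snord110 in Nop56, Snord70 and Snord11 in Nop58, Snora75 and Snord82 in Ncl, and Snord69 and Snord19 in Gnl3. With limma none passed the rhythm test, while Snora75 and Snord11 were under 0.05 before adjustment. Snora75 had a range of 1.33 ± 0.40 with the peak at 10.29 h, near the 10.84 h of Ncl (adjusted p = 0.106, unadjusted 0.0112). Snord11 had 0.67 ± 0.25 at 11.39 h (0.242, unadjusted 0.0444). Snord69, within Gnl3, the member with the largest range, had a range of 0.07 ± 0.12 (0.946).

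Other genes of the pathway were counted in 5 lists with 155 measured genes. Of these 155, 14 were rhythmic (9.03%), against 6.88% of all genes and 13.9% of those above background. Of the 14, 10 had a peak between 6 and 15 h, and the median range of the 155 was 0.34. At ZT12, 127 of the 155 lay above ZT0, against 49.6% of all genes, and 7 were called higher, against 0.834%. Without ZT0 replicate 1, 16 were rhythmic, against 6.77% of all genes, and 122 lay above ZT0, against 48.1%. In that fit limma called 1 of the 155 higher, and 82 of all 23152 genes. The median difference of the 60 large-subunit factors among them went from 0.42 to 0.29, and their mean level on that array, 8.50, was below the 8.55 to 9.20 of the other 23. Whether the members differ from these lists was not tested, since the members were chosen with results of these arrays known. Among the 15 other RNA polymerase I subunits and factors, Taf1d, a subunit of the promoter selectivity factor, was the one rhythmic gene, with a range of 0.74 ± 0.14 at 8.63 h (limma adjusted p = 0.00418). Of 52 other small-subunit factors 5 were rhythmic (7 without ZT0 replicate 1). The largest ranges were those of Wdr43, 1.05 ± 0.23 at 8.62 h (0.0131), Riok2, a kinase of late small-subunit particles, 1.02 ± 0.16 at 10.58 h (0.000435), and Utp14a, 0.79 ± 0.17 at 5.12 h (0.0141). Riok2 was higher in both contrasts, by 0.93 (0.0208) and 1.03 (0.0141).

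Of 60 other large-subunit assembly and export factors, 6 were rhythmic, all with a peak between 6 and 15 h. Nol8 ranged 1.23 ± 0.24 at 9.52 h, Dhx33, a helicase, 0.93 ± 0.16 at 9.92 h, and Mdn1, the giant AAA ATPase that strips assembly factors off the particle, 0.81 ± 0.18 at 10.14 h (limma adjusted p = 0.00503, 0.00185 and 0.0181). Of 11 other small nucleolar particle proteins, Rpap3, a co-chaperone of their assembly, was rhythmic with its peak at 0.07 h (0.0211), away from the members. Of 17 trimming nucleases and exosome subunits, Xrn2, an exonuclease, was rhythmic, at 4.70 h with a range of 0.52 ± 0.10 (0.00488).

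The rhythmic genes of the other polymerases peaked at differing hours, with Polr3a and Polr2b within the span of the rhythmic members. Of 21 RNA polymerase III genes, 3 were rhythmic (2 without ZT0 replicate 1): Polr3g with a range of 1.30 ± 0.18 at 15.93 h (limma adjusted p = 0.000115), Polr3a at 10.09 h (0.0437) and Polr3k at 20.04 h (0.0279). Of 8 RNA polymerase II subunits, Polr2b was rhythmic, with a range of 0.99 ± 0.15 at 12.62 h (0.000427). Cytosolic ribosomal proteins, the cargo of this machinery, counted 64 measured genes, of which limma called 0 rhythmic, or 1 without ZT0 replicate 1. At an unadjusted p under 0.05 there were 10, and Rpl14 came nearest, with a range of 0.52 ± 0.14 at 17.40 h (0.0536), and the median range was 0.27, against 0.68 for the 30 members. Their mRNAs are known to be controlled largely at translation, which arrays do not measure.

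**Figure D5:**
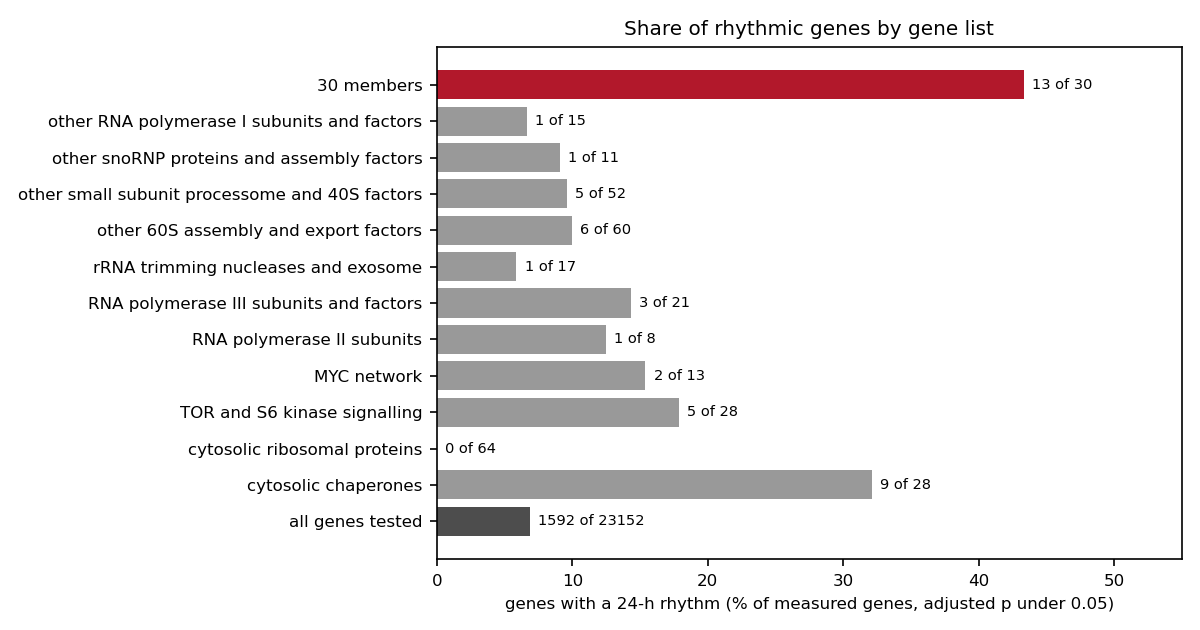
Share of measured genes with a 24-h rhythm (percent, limma adjusted p under 0.05) for the 30 members (red), 11 related lists (grey) and all genes tested (black), with counts at the bar ends. The members stand at 13 of 30, cytosolic chaperones at 9 of 28 and all genes at 1592 of 23152.

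Regulators of ribosome production were read from lists too. In the MYC network, 2 of 13 genes were rhythmic: Max, the partner of MYC, with a range of 0.71 ± 0.14 at 8.56 h (limma adjusted p = 0.00539), and Mga at 7.35 h (0.014). In the TOR list 5 of 28 were rhythmic (4 without ZT0 replicate 1). The largest ranges there were those of Ddit4, an inhibitor of TOR complex 1, at 2.47 ± 0.33 and 17.51 h (9.19e-05), Sesn3, 0.97 ± 0.16 at 21.89 h (0.000828), and Larp1, 0.85 ± 0.15 at 20.85 h (0.00216). The mean of Ddit4, 5.35, lay below the background percentile. In the list of the 5S particle and p53, Cdkn1a was the rhythmic gene, of 6, with a range of 2.42 ± 0.42 at 18.80 h (0.00164); its mean of 6.04 also lay below that percentile. Cytosolic chaperones had 9 rhythmic genes of 28 (8 without ZT0 replicate 1), among them Hsph1 with a range of 2.26 ± 0.39 at 13.24 h (0.00172), Hspa1b at 11.94 h (0.0302) and Chordc1 at 13.34 h (0.00228). All 16 clock genes were rhythmic, led by Dbp, Arntl and Nr1d1 (7.58, 19.70 and 4.82 h). Of 15 cell division genes limma called 0 rhythmic, while 1, Ccnb2, lay under 0.05 before adjustment.

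Markers of liver cell types gave 3 rhythmic genes with limma, 1 each in the lists for hepatocytes (Hnf4a, 9.36 h, adjusted p = 0.0281), stellate cells (Pdgfrb, 20.39 h, 0.023) and biliary cells (Sox9, range 1.67, 20.16 h, 5.22e-05). Kupffer cell, endothelial, T and NK cell, B cell, neutrophil, erythroid, pancreatic acinar and adipocyte markers had 0, with 0 to 3 under an unadjusted p of 0.05. From ZT3 to ZT21 the mean of the neutrophil markers stayed between 4.29 and 4.57 at each time, and that of the Kupffer cell markers between 7.83 and 8.53. The members' differences between ZT9 and ZT21 stood beside Kupffer means of 8.41 and 8.53, neutrophil means of 4.49 and 4.48, stellate means of 8.55 and 8.92 and biliary means of 6.14 and 6.64. Sox9 and Pdgfrb were lower at ZT9 than at ZT21, with differences of -1.77 (limma adjusted p = 0.00578) and -0.97 (0.0429). The part of these cells in the members' differences was not tested.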

How the data were processed

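Liver RNA of 24 samples was measured on Affymetrix whole-transcript arrays. The deposited values are log2 expression per probe set, normalized by the authors with a method not given in the sources used here. The submitters' processing notes name limma, Affymetrix Power Tools 2.10.0 and mm10, without their roles. Biotinylated DNA was made from 300 ng of RNA, per the labels. Array medians were 6.44 to 6.51. An array gives no depth of reads, and the precision is limited by how many arrays there are.

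Of 269479 probe sets, 233753 had 1 gene symbol and were averaged per gene, 5106 had several and 30620 had none; 2189 symbols were updated from RefSeq. Sequences and positions are from RefSeq on GRCm38.p6. All 23152 genes were tested with no filter in limma 3.58.1 (R 4.3.3): lmFit, eBayes, two-sided, Benjamini-Hochberg over all genes, threshold 0.05. Errors of fitted values are SEs. On simulated rhythms in 23152 genes, 74% of those with a range of 1 and 91% with 1.5 were recovered.

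All 30 members are named. Values of every array at the highest and lowest time are given for the 10 with the smallest rhythm p and the 5 of RNA polymerase I. From each pathway list the 3 rhythmic genes of largest range are named, or the gene of smallest p; marker genes are named where called. Array values of Nop58, Nop16, Mybbp1a and Rrs1 were added after they were seen. The members and lists were chosen with earlier results of these data known, and the alternatives with ZT0 replicate 1 known to stand apart. Replicate numbers were not taken to pair arrays: of 84 same-number pairs at different times, 5 correlated above 0.1 (median -0.02). These correlations are not suited to show a shift in peak hour, whose effect changes sign over the day. All 16 clock genes peaked later on replicate 1 than on replicate 2. No 2 arrays were near-identical: the median absolute difference per probe set between any 2 was at least 0.535. Alternatives were scaling, a filter on dim genes, the probe set summary, the variance prior, array weights, a replicate block and subsets of arrays.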

Additional observations from a re-analysis of the deposited data

How the results depend on the processing

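The 13 rhythmic members became 8 with the brightest probe set and 8 with the median of probe sets (7 shared each), 4 on the arrays of replicates 2 and 3 (all shared) and 6 without the 3 ZT0 arrays (5 shared), where 3.28%, 3.92%, 3.3% and 6.13% of genes were called; leaving out single arrays gave 9 to 14. The 7 members with a time effect became 0 with the brightest probe set (11 at an unadjusted p under 0.05 with limma), 3 with the median and 2 without the ZT0 arrays, and 2 to 9 without single arrays. Over all genes the share called was 0.527% with the brightest probe set, 0.959% with the median and 1.59% without the ZT0 arrays. It was 1.98% in the main fit. ZT9 minus ZT21, with 2 members, gave 4 without dim genes, 6 on replicates 2 and 3, and 0 with limma on the brightest probe set, on the median and on only the 6 arrays of the contrast (11, 10 and 10 at an unadjusted p under 0.05), and 0 to 5 without single arrays. Of all genes, 1.65% were called in either direction on replicates 2 and 3, 0.419% with the brightest probe set and 0.669% with the median. ZT12 minus ZT0, with 7, gave 3 with the median and 0 with limma on the brightest probe set, on replicates 2 and 3 and on only the 6 arrays (13, 13 and 19 unadjusted), and 0 to 9 without single arrays. Here 0.501% of all genes were called in either direction with the median, 0.225% with the brightest probe set and 0.302% on replicates 2 and 3. The 12-h component gave 0 members throughout, with 8 unadjusted on all arrays. Shares of all genes were not taken beside the unadjusted counts given here. Subsets hold fewer arrays; for the probe set summaries the cause was not tested. Utp20 turned with its brightest probe set, to a peak at 5.09 h (range 0.36, adjusted p = 0.751).

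The replicate block, on numbers not shown to pair arrays, gave 12 rhythmic members, 4 with a time effect, and 2 and 7 in the contrasts. Centring, quantile scaling, the priors, array weights and leaving out probe sets at the upper limit kept each of these counts within 1.5 times. Apart from Utp20, no member's contrast changed sign and no peak moved by over 6 h in any fit where the member passed with or without the change. Triplicates limit small changes.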
